A study of Mus musculus with 8 samples.

Results

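The 40 macrophage and myeloid genes described here were taken from a fixed list of names, from the lineage gene Ptprc to the monocyte receptor Ccr2, and were looked up by name on mouse expression arrays of soleus muscle. All 40 names were on the array, with 68 probes. Of the 22221 genes that could be tested over the whole array, 37 were from this list, and they had 51 measured probes. The rule uses names and no measured value, but the list was chosen with earlier results of these data known. The 8 arrays fall into 4 labelled Pg and 4 labelled Co. All mice were male C57BL/6J on a high-fat diet, entered the study at 8 weeks of age, were treated for 6 weeks and were 14 weeks old at sampling. Pg mice were given Porphyromonas gingivalis, a bacterium of human gum disease, through a feeding needle in 100 µL of saline, and Co mice were given the saline without bacteria, so feeding needle, saline and diet were shared by both groups. Whether every array stands for its own mouse is not in the labels; p-values here rest on the spread between arrays, which may in part be technical.

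Macrophages of skeletal muscle lie mostly in the connective tissue between fibres. They are kept alive by signals through the receptor Csf1r, clear dead cells and debris, and are joined after injury by monocytes that enter from blood through the chemokine receptor Ccr2. Resident cells are commonly marked by scavenger receptors such as Cd163, Mrc1, Lyve1 and Folr2, by complement C1q and by the efferocytosis receptor Mertk. Whole soleus RNA is mostly fibre RNA, so these genes report a minor cell population, and in such bulk samples fewer macrophages and less RNA per macrophage cannot be told apart.

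Values are log2 signals minus each array's 75th percentile, so 0 is the level below which 75% of that array's probes lie. Slow-fibre markers averaged 8.66 to 8.78 on the Pg arrays and 8.5 to 8.6 on the Co arrays, the highest of the cell lists read here. Probes well above background numbered 34853 to 35365 on the Pg arrays and 30177 to 34076 on the Co arrays, fewest on Co 3. The 75th percentile of the signal itself lay between 648 and 764 arbitrary units, lowest on Pg 2, which the scanner software marked for evaluation. All 8 arrays were on 1 slide with the Pg arrays along the lower and the Co arrays along the upper side, and in every result below the side and the group cannot be told apart. Groups are those of the sample records. The authors' deposited table disagrees with them: its column named for Pg 1 holds the array filed as Co 1, and so on for each number in both directions. Which source is right is not settled, and it decides the sign of every difference below, which would be the opposite under the column names of that table.

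No measured macrophage or myeloid gene differed between the Pg and the Co arrays by more than the spread within the groups. By limma, 0 of the 37 measured members passed an adjusted p of 0.05, where 0.117% of all genes passed (26 genes; 0.081% lower and 0.036% higher in Pg). At an unadjusted p under 0.05 the count was again 0 of 37, against 19.7% of all genes, 9.66% being lower in Pg. The groups overlapped for every measured member, while they did not overlap for 13.4% of all genes, with Pg below Co for 6.07%. The members' adjusted p ran from 0.307 for Cx3cr1 to 0.991 for Folr2. The point estimates were nonetheless mostly below 0: 31 of 37 members were lower in the Pg mean and 6 were higher, with a median difference of -0.32, against -0.01 over all genes, 52.3% of which were below 0. The median depended on single arrays. It was -0.62 without Co 3, -0.14 without Co 2, -0.17 without Co 4 and -0.19 without Pg 2, and the count below 0 was 33 without Co 3 but 23 without Co 2. Without both Pg 2 and Co 3, a choice made after seeing the data, the median was -0.58 and again 0 members passed.

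**Figure D1:**
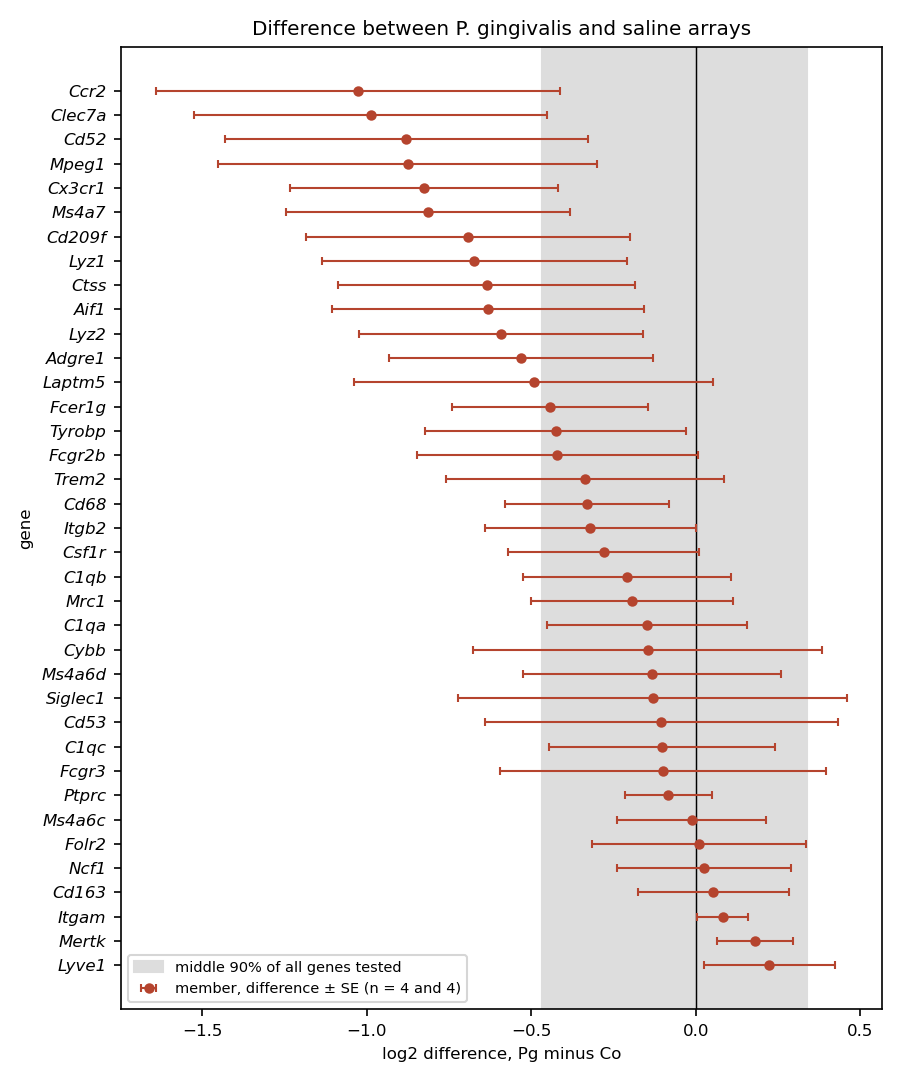
Difference in log2 signal (Pg minus Co, x axis) for each of the 37 measured members, with bars of 1 SE from limma (n = 4 and 4). The grey band spans the middle 90% of all 22221 genes, -0.47 to 0.34; members run from Ccr2 at -1.03 to Lyve1 at 0.22, with wide bars, and 0 pass the adjusted threshold.

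The lineage core holds genes of leukocytes or of the myeloid line as a whole: Ptprc (the leukocyte phosphatase CD45), Cd53 (a tetraspanin), Cd52 (a small surface glycoprotein), Laptm5 (a lysosomal membrane protein of blood cells), Spi1 (a master transcription factor of myeloid cells), the integrin chains Itgam and Itgb2, and Tyrobp (the adaptor DAP12 of activating receptors). Of these 8, 7 were measured, 6 with a lower Pg mean, and 0 passed. Spi1 was not well above background on any array. Cd52 stood at -1.35, -2.0, -0.81 and -0.99 on Pg 1 to 4, against -0.78, 0.51, -1.86 and 0.50 on Co 1 to 4. Co 2 and Co 4 were above every Pg array and Co 3 was below 3 of them. The difference was -0.88 ± 0.55 (SE; adjusted p = 0.413, limma). Tyrobp was at -0.62, -1.27, -0.36 and -0.52 on the Pg arrays, against -0.45, 0.45, -1.33 and 0.27 on the Co arrays. Here Co 3 was the lowest of the 8 and Co 2 the highest, so the Co arrays enclosed the Pg arrays, and the difference was -0.43 ± 0.40 (adjusted p = 0.579). Laptm5 at -0.49, Itgb2 at -0.32 and Cd53 at -0.10 had the same order at their extremes, Co 2 highest and Co 3 lowest. Cd53 was well above background on 3 Pg and 3 Co arrays only.

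Itgam and Ptprc did not share this pattern, and each is represented by its probe of highest mean signal, which is why their probe sequences are shown. Itgam, the alpha chain of CD11b/CD18, was at 5.09, 5.42, 5.21 and 5.26 on the Pg arrays, against 5.08, 5.21, 5.22 and 5.15 on the Co arrays. This is a nearly flat profile, with a range of 0.33 over the 8 arrays and a difference of 0.08 ± 0.08 (adjusted p = 0.587). The probe, on the plus strand of mm9 at chr7:135261755-135261814, begins with a run of 20 bases of alternating C and A, in capitals below. Such a run of 20 bases or more occurs in 94 of the 33636 measured probes (0.279%). The median range of those probes over the 8 arrays was 0.35, against 0.52 for all measured probes. They were also brighter, with a median level of 4.77 against -1.29. Whether the run or the level goes with the smaller range was not tested. The other Itgam probe, at chr7:135212140-135212199, has no such run. It stood at -4.49, -3.52, -3.78 and -4.70 on the Pg arrays, against -4.07, -4.40, -2.66 and -4.07 on the Co arrays, highest on Co 3, where most members were lowest. Whether either probe reports Itgam RNA was not tested.
Itgam probe of highest mean: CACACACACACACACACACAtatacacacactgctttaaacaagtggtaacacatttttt
Itgam other probe: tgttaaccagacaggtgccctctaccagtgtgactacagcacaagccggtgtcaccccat

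For Ptprc, the probe of highest mean lies on the minus strand at chr1:140020575-140020634 and carries a run of 9 bases of alternating T and A, in capitals below. Its values were 1.34, 1.49, 1.0 and 0.94 on the Pg arrays, against 1.43, 1.2, 1.27 and 1.21 on the Co arrays, a difference of -0.08 ± 0.13 (adjusted p = 0.753). A further Ptprc probe, at chr1:139960089-139960148, stood at -3.29, -4.05, -2.61 and -2.98 on the Pg arrays, against -2.68, -1.32, -4.17 and -1.54 on the Co arrays. This second probe followed the other members closely over the 8 arrays (r = 0.99 with their mean), and its difference was -0.80. The remaining measured probe, at chr1:140068557-140068616, gave -0.98 with r = 0.79. The groups overlapped for each of the 3 measured Ptprc probes. The exon of each probe was not looked up, since an annotation of mm9 was not used here.
Ptprc probe of highest mean: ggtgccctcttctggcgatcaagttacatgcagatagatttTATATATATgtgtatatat
Ptprc probe that follows the other members: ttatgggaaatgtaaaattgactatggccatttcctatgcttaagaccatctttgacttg

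**Figure D2:**
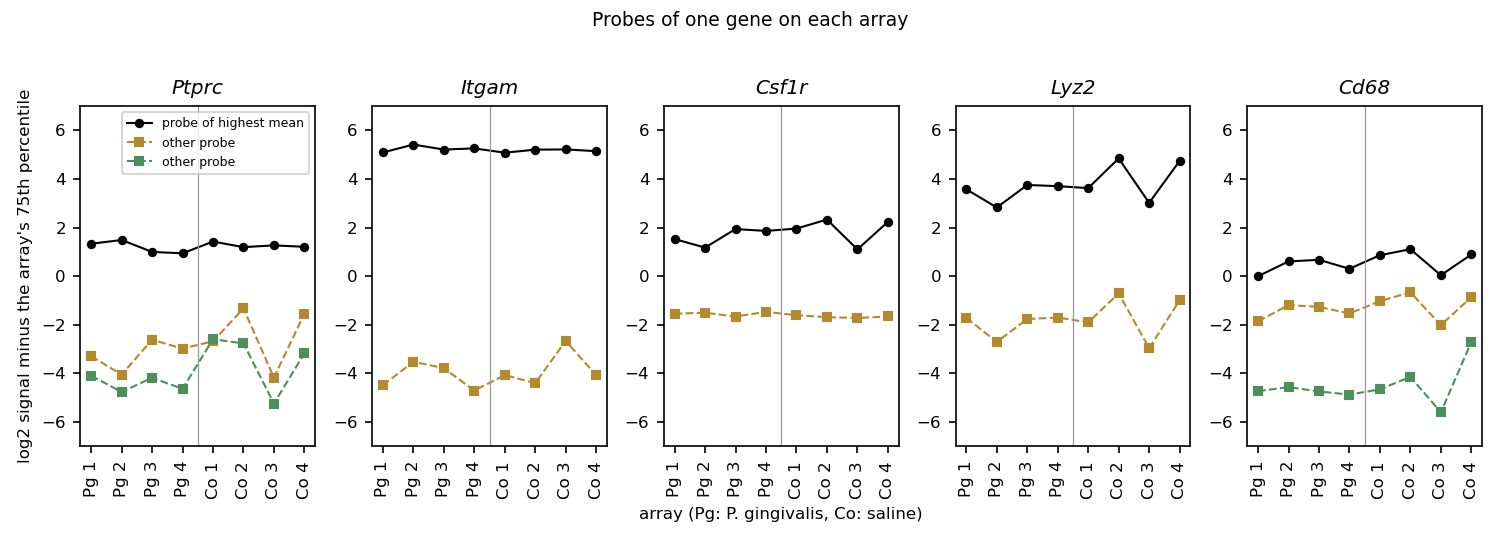
Log2 signal minus the array's 75th percentile (y axis) on each array (x axis) for every measured probe of 5 members; black is the probe of highest mean, coloured dashed lines are other probes of the gene, and levels of different probes are not comparable. The 2 Lyz2 probes and the 2 brighter Cd68 probes have like profiles, the dimmest Cd68 probe peaks on Co 4 at -2.71, and for Ptprc, Itgam and Csf1r 1 probe is nearly flat (ranges 0.55, 0.33 and 0.25).

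Macrophage identity genes include the surface receptors Adgre1 (a classical surface marker of mouse macrophages), Csf1r, Cx3cr1 (the fractalkine receptor), Mertk (which binds dying cells through bridging proteins) and Trem2 (a lipid-sensing partner of Tyrobp), the lysosomal proteins Cd68 and Ctss (a cysteine protease), the pore-forming Mpeg1, the actin-binding Aif1 (Iba1) and the membrane-spanning Ms4a7, Ms4a6c and Ms4a6d. All 12 were measured, 11 had a lower Pg mean, the group's median difference was -0.43 and 0 passed. Cx3cr1, with the smallest p of all members, stood at -3.95, -4.11, -3.32 and -3.18 on the Pg arrays, against -3.24, -2.28, -3.73 and -2.01 on the Co arrays. Co 2 and Co 4 lay above all Pg arrays, but Co 3 lay among them. The difference was -0.83 ± 0.41, 1.77-fold lower in Pg (adjusted p = 0.307), and it ran from -1.13 without Co 3 to -0.56 when single arrays were left out.

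Mpeg1 was at -1.86, -2.55, -1.37 and -1.46 on the Pg arrays, against -1.51, 0.17, -2.35 and -0.05 on the Co arrays. The Co arrays spanned 2.52 and the Pg arrays 1.18, both more than the difference of -0.875 ± 0.58 (adjusted p = 0.434). Ms4a7 was at -2.85, -3.44, -2.19 and -2.24 on the Pg arrays, against -2.04, -1.40, -2.90 and -1.13 on the Co arrays. Co 1, Co 2 and Co 4 were above every Pg array and only Co 3 fell among them (-0.81 ± 0.43, adjusted p = 0.339). A further Ms4a7 probe gave -0.83. Mertk was the exception in direction: it was at -1.54, -1.62, -1.79 and -1.79 on the Pg arrays, against -1.77, -2.0, -2.08 and -1.62 on the Co arrays. Its 8 values lay within 0.54 of each other, and the difference was 0.18 ± 0.11 (adjusted p = 0.422).

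The remaining identity genes had differences of -0.63 for Ctss and Aif1, -0.53 for Adgre1, -0.34 for Trem2, -0.33 for Cd68, -0.28 for Csf1r, -0.13 for Ms4a6d and -0.01 for Ms4a6c. Adjusted p for these ran from 0.468 to 0.981. The 3 measured Cd68 probes gave -0.33, -0.32 and -0.45, so they were alike in size. Csf1r had 1 probe that followed the other members (r = 0.98) and 1 that was nearly flat, with a range of 0.25 and a difference of 0.12.

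**Figure D3:**
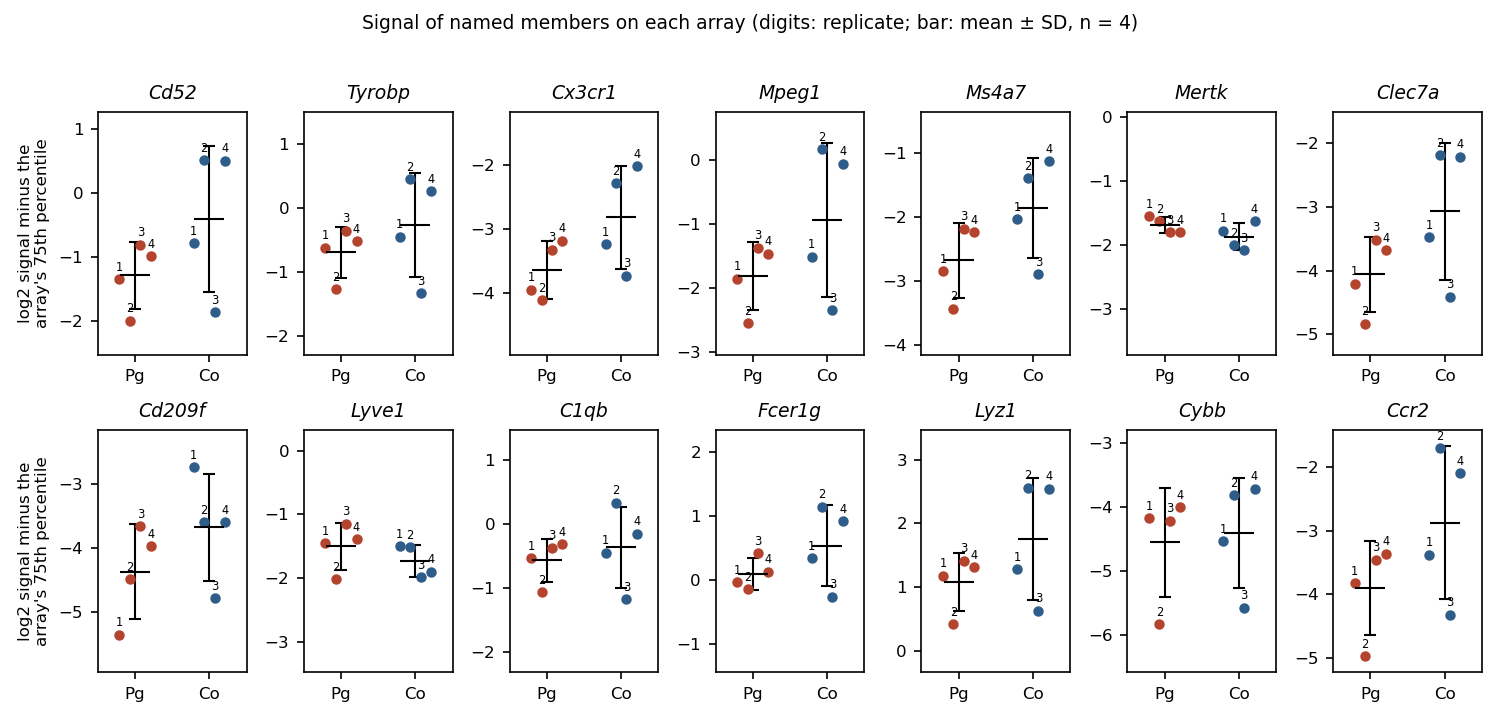
Log2 signal minus the array's 75th percentile (y axis, each panel spanning the same number of log2 units) for 14 members named by rule, Pg arrays in red at left and Co arrays in blue at right; digits are replicate numbers and bars are mean ± SD (n = 4). In most panels Co 2 and Co 4 stand highest and Co 3 lowest or near Pg 2, so the groups overlap in every panel.

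The scavenger and lectin receptors include Cd163, Mrc1, Lyve1 and Folr2, which commonly mark resident macrophages. Cd163 takes up haemoglobin bound to haptoglobin, Mrc1 is the mannose receptor, Lyve1 binds hyaluronan and Folr2 binds folate. Siglec1 binds sialic acid, Msr1 is a scavenger receptor, Cd209f belongs to the DC-SIGN family and Clec7a (dectin-1) binds fungal beta-glucan. Of the 8, 7 were measured, 4 with a lower and 3 with a higher Pg mean, and 0 passed; Msr1 was not well above background on any array. Clec7a had the largest estimate of the group. It was at -4.21, -4.83, -3.52 and -3.69 on the Pg arrays, against -3.48, -2.19, -4.41 and -2.22 on the Co arrays. Co 3 was lower than 3 of the 4 Pg arrays, while Co 2 and Co 4 were more than 1 log2 unit above all of them (-0.99 ± 0.54, 1.98-fold lower in Pg, adjusted p = 0.351).

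Cd209f followed another order, at -5.36, -4.50, -3.66 and -3.97 on the Pg arrays, against -2.74, -3.59, -4.79 and -3.60 on the Co arrays. Its highest value was on Co 1 and its lowest on Pg 1, and it was not well above background on Co 3 (-0.69 ± 0.49, adjusted p = 0.468). Lyve1 had the highest estimate of all members, at -1.45, -2.02, -1.15 and -1.39 on the Pg arrays, against -1.50, -1.52, -1.98 and -1.9 on the Co arrays. Pg 1, Pg 3 and Pg 4 were above all Co arrays and Pg 2 was below all of them (0.22 ± 0.20, adjusted p = 0.562). Mrc1 at -0.19, Cd163 at 0.05 and Folr2 at 0.01 had estimates smaller than their SE; the last of these was -0.25 without Co 3 and 0.20 without Co 2. Siglec1, at -0.13, was well above background on 2 Pg and 2 Co arrays and was highest on Co 3 at -3.78.

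The 3 chains of C1q, the recognition protein of the classical complement pathway, which macrophages make in many tissues, were measured on all arrays. C1qb stood at -0.54, -1.07, -0.37 and -0.32 on the Pg arrays, against -0.45, 0.33, -1.18 and -0.15 on the Co arrays. Co 2 was highest and Co 3 lowest, and the Co arrays enclosed the Pg arrays (-0.21 ± 0.32, adjusted p = 0.742). C1qa and C1qc, which lie beside C1qb on chromosome 4, gave -0.15 and -0.10, with the same highest and lowest array. Without Co 2 all 3 chains had a higher Pg mean, from 0.02 to 0.11, and without Co 3 a lower one, from -0.48 to -0.41.

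Fc receptors bind antibody: Fcgr2b is inhibitory, Fcgr1 and Fcgr3 are activating, and Fcer1g is the signalling chain of the activating ones. Fcer1g stood at -0.03, -0.15, 0.42 and 0.13 on the Pg arrays, against 0.34, 1.15, -0.26 and 0.92 on the Co arrays. Co 2 and Co 4 exceeded all Pg arrays and Co 3 was the lowest of the 8 (-0.44 ± 0.30, adjusted p = 0.445). Fcgr2b gave -0.42 by either of its probes. Fcgr3 gave -0.10, with Pg 4 at 0.43, the highest of the 8 arrays; its other probe did not have that peak and gave -0.29. Fcgr1, the high-affinity receptor, was well above background on Co 2 alone. Its measured signals were -7.57, -7.58, -6.72 and -6.97 on the Pg arrays, against -6.70, -4.03, -6.45 and -5.17 on the Co arrays, and since 7 of the 8 arrays give only a bound it was not tested and no fold is given.

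Lyz1 and Lyz2 encode the lysozymes of mouse, Lyz2 being the form of macrophages and Lyz1 known mainly from Paneth cells of the gut. They are close relatives that lie next to each other on chromosome 10, and the sequences below are shown to let a reader judge how distinct their probes are. The longest stretch that the Lyz1 probe shares with a Lyz2 probe is 8 bases. How well each probe binds the other gene's RNA was not tested. Lyz1 was at 1.18, 0.42, 1.42 and 1.31 on the Pg arrays, against 1.29, 2.56, 0.64 and 2.54 on the Co arrays. Co 2 and Co 4 were more than 1 log2 unit above every Pg array, Co 1 was among them and Co 3 was below 3 of them (-0.67 ± 0.46, adjusted p = 0.454). Lyz2 had the same order of arrays at its extremes (-0.59 ± 0.43, adjusted p = 0.480), and its other probe gave -0.33.
Lyz1, minus strand, mm9 chr10:116724862-116724921: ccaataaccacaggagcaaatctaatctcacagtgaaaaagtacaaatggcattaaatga
Lyz2 probe of highest mean, minus strand, mm9 chr10:116714450-116714509: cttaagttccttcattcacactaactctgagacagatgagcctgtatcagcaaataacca
Lyz2 other probe, minus strand, mm9 chr10:116719175-116719234: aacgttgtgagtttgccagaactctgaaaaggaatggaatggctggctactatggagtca

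Cybb is the catalytic chain of the phagocyte NADPH oxidase and Ncf1 its organising cytosolic subunit. Cybb was dim, well above background on 3 Pg and 2 Co arrays, and stood at -4.17, -5.82, -4.21 and -4.00 on the Pg arrays, against -4.52, -3.81, -5.57 and -3.71 on the Co arrays. Pg 2 and Co 3 were far below the other 6 arrays, and the difference was -0.15 ± 0.53 (adjusted p = 0.90). Ncf1 gave 0.03, and -0.39 by a further probe. Ccr2, which brings monocytes out of marrow and into tissue, had the largest estimate of all members. It was at -3.82, -4.96, -3.46 and -3.36 on the Pg arrays, against -3.38, -1.71, -4.32 and -2.10 on the Co arrays. Again Co 2 and Co 4 were above all Pg arrays and Co 3 was below all but Pg 2. The difference was -1.03 ± 0.61, 2.04-fold lower in Pg (adjusted p = 0.393), and it ran from -1.51 without Co 3 to -0.64 when single arrays were left out.

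What the members had in common was their order over the 8 arrays, and this order did not follow the groups. The mean deviation of the 37 members from their own means was -0.24, -0.64, 0.11 and 0.06 on Pg 1 to 4, against 0.06, 0.74, -0.70 and 0.60 on Co 1 to 4. The highest and the lowest array were thus both Co arrays. Co 2 held the highest value for 25 of 37 members (67.6%, against 13.6% of all genes), and Co 3 the lowest for 19 (51.4%, against 10.6%). Pg 2 held the lowest for 13 (35.1%, against 10.6%). The Pg arrays were the more uniform: the median SD of the members was 0.413 within Pg and 0.802 within Co, while over all genes it was 0.133 within Pg and 0.132 within Co. The SD was larger in Co for 33 of 37 members (89.2%, against 52.3% of all genes). Most members vary together, so these counts are not independent observations and rest on 4 arrays per group. For all 37 members the difference between the group means was smaller than the range within Pg and than the range within Co, which also held for 73.7% of all genes.

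**Figure D4:**
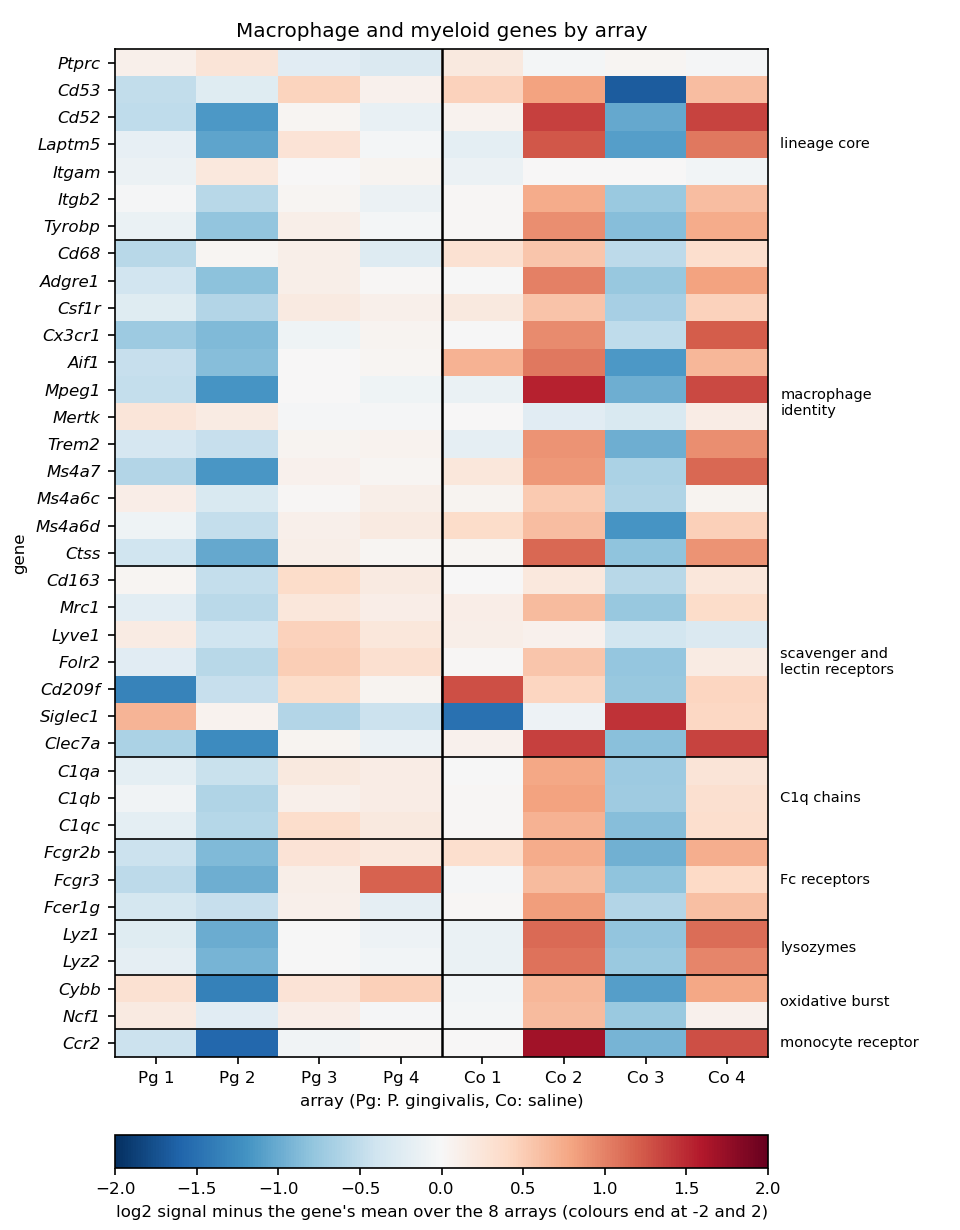
Each row is a measured member, grouped by role, and each column an array (4 Pg at left, 4 Co at right); colour is the log2 signal minus the gene's mean over the 8 arrays. Each gene is shown by its measured probe of highest mean. Co 2 and Co 4 are red and Co 3 and Pg 2 blue across most rows, with the rows of Ptprc, Itgam, Mertk and Siglec1 apart.

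The members followed each other closely from array to array, a description over 8 arrays that share a slide and a scaling. Over the 666 pairs of members the median Pearson r was 0.81 (Spearman 0.81). It was 0.87 for deviations from the group means, so the agreement lay within the groups, and 0.69 when Pg 2 and Co 3, the arrays farthest from the median, were left out. Of the 37, 23 had r over 0.9 with the mean of the other members, among them Adgre1 and Tyrobp at 0.99 and Csf1r at 0.98. Of the 22184 other genes, 234 (1.05%) reached 0.9 with the members' mean. By the probe of highest mean, the members that did not follow were Ptprc and Siglec1 at -0.42, Itgam at -0.40, Mertk at -0.03, Lyve1 at 0.38 and Cd209f at 0.59. The other measured probes of Ptprc gave 0.99 and 0.79, and that of Itgam gave -0.63.

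Genes that work with the members were read from 8 lists, and 0 of their 85 tested genes passed the adjusted threshold, 67 having a lower and 18 a higher Pg mean, with a median of -0.19. Among growth factors and receptors, 6 of 7 tested genes were lower in the Pg mean. Csf2rb, the shared signalling chain of the GM-CSF and IL-3 receptors, gave -0.76 ± 0.27 (adjusted p = 0.185, limma). Its mouse paralog Csf2rb2 gave -0.58 and the G-CSF receptor Csf3r -0.24. The Csf3r probe was bright, with means of 6.02 in Pg and 6.26 in Co, and gave r = -0.22 with the members. Whether it reports Csf3r RNA was not tested. Csf1, a ligand of Csf1r, gave -0.31 and Il34, the other ligand, 0.20. Of the chemoattractants, all 7 tested were below 0, with Cx3cl1, the ligand of Cx3cr1, at -0.24 (adjusted p = 0.288, limma) and Ccl6 at -0.49. Ccl7, a ligand of Ccr2, was at -1.81 with an SE of 1.13. It was well above background on 2 Pg and 2 Co arrays only and highest on Co 1 at -2.02, so its difference is poorly determined.

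Among transcription factors, 4 of 10 were lower and 6 higher. Runx1, a blood-lineage factor, stood at -1.36, -1.07, -0.88 and -1.01 on the Pg arrays, against -0.47, -0.46, -0.82 and -0.45 on the Co arrays. These groups did not overlap, unlike those of any measured member, but the adjusted p was 0.0974 (limma). Of the 85 tested genes of all these lists, 4 were without overlap, a smaller share than the 13.4% of all genes. Id3 gave -0.35, also without overlap, and Cebpb 0.30. Of 15 signalling partners, 14 were lower: the phospholipase Plcg2 at -0.69 ± 0.16 (adjusted p = 0.0961, no overlap) and the exchange factor Vav1 at -0.64. The phosphatase Ptpn6 was the exception, at 0.26 without overlap (adjusted p = 0.149). Hvcn1, a proton channel that works beside the phagocyte oxidase, gave -0.66, and Cyba, the membrane partner of Cybb, gave -0.25.

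Lysosomal genes were balanced, 9 lower and 7 higher with a median of -0.02, and they include genes that muscle fibres also express. Grn (progranulin) gave 1.23 ± 0.37 (adjusted p = 0.144), at 6.06, 7.0, 7.18 and 5.85 on the Pg arrays against 5.03, 5.51, 4.70 and 5.92 on the Co arrays. Only Co 4 reached into the Pg range. Psap gave 0.25 and Ctsh -0.19. Of 9 tested partners of Mertk, 8 were lower, with the bridging proteins Pros1 at -0.34 and Gas6 at -0.16 and the related receptor Axl at -0.25, while Mertk itself gave 0.18. Of 17 further resident macrophage genes 16 were lower, with Cd14 at -0.57, Cd209d at -0.61 and Clec10a at -0.73 (adjusted p 0.178 to 0.293).

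Markers of other cells of muscle were set beside the members. The 5 tested mast cell markers of 6, brightest Mcpt4 and Cma1, had mean deviations of -0.22, -0.44, 0.24 and 0.20 on the Pg arrays, against 0.06, 0.64, -0.97 and 0.50 on the Co arrays. This is the members' order of arrays (r = 0.96 over 8 arrays). The 8 stromal fibroblast markers, brightest Dcn and Ly6a, ran from -0.31 to 0.20 on the Pg arrays and from -0.26 to 0.30 on the Co arrays (r = 0.87), with Pg 2 and Co 3 again lowest. The markers of this list were not all alike. Fap gave r = 0.92 with the members, Col3a1 0.90, Pdgfra 0.86, Lum 0.81 and Col1a1 0.67. Ly6a gave 0.37, Dcn 0.35 and Pdgfrb -0.29. The mean of the dendritic cell markers, 4 of 6 tested, gave r = 0.94. That value rests on Flt3 (r = 0.93), since Zbtb46 gave 0.40, Ccr7 0.29 and Siglech, the brightest, -0.62. Xcr1 and Clec9a were not measured. The 5 mast cell markers gave r of 0.76 to 0.94 each. The part of these cells in the members' values was not tested, and single genes of the cell lists are named here after their values were seen.

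The means of the lymphocyte lists did not share that order. T cell markers (6 of 8 tested, Cd3g and Cd8a not measured, brightest Cd4 and Cd3e) lay between -0.19 and 0.07 on the Pg arrays and between -0.01 and 0.09 on the Co arrays (r = -0.03), and B cell markers (4 of 6, Cd79a and Cd79b not measured, brightest Blnk and Pax5) gave r = 0.09, although Blnk by itself gave 0.97. The 3 of 6 natural killer cell markers tested gave r = 0.29. Endothelial markers, 9 of 9 tested with Egfl7 and Kdr the brightest named, gave r = 0.62, with a range over the arrays of -0.21 to 0.11 in Pg and 0.02 to 0.15 in Co. Neutrophil markers (8 of 12, brightest Elane and Ly6g) had mean deviations of -0.52 to -0.30 on the Pg arrays and -0.15 to 0.83 on the Co arrays, highest on Co 1, and gave r = 0.56. Their differences, read after the values were seen, were unlike in size. S100a8 gave -2.21, S100a9 -2.10 and Cxcr2, well above background on 1 Pg and 3 Co arrays, -1.45. Mmp8 gave -0.44, Mpo -0.23, Ly6g -0.11, Camp -0.03 and Elane 0.07, and 0 of the 8 passed. Fast-fibre markers ran from -0.43 to 0.50 on the Pg arrays and from -0.97 to 0.30 on the Co arrays (r = -0.32), in another order of arrays than the members. Red cell markers, 7 of 8 tested, were lowest on Co 3 at -1.20 (r = 0.43). Adipocyte markers gave r = -0.24 and slow-fibre markers -0.55.

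Some of these lists had a higher Pg mean for every tested gene, while 31 of 37 members had a lower one. Slow-fibre markers were higher in the Pg mean for 8 of 8 genes (median 0.17, 5 without overlap). Fast-fibre markers were so for 9 of 9 (median 0.16, 3 without overlap) and red cell markers for 7 of 7 (median 0.57, 1 without overlap). Over all genes, 10596 of 22221 had a higher Pg mean and 13.4% were without overlap. These counts are descriptions, since genes of 1 list need not vary independently. Endothelial markers were mixed, with 6 of 9 lower and 3 higher in the Pg mean (median -0.13). Egfl7 gave -0.40 (adjusted p = 0.0594, limma) and Kdr -0.55 (adjusted p = 0.0643), both without overlap. Pecam1 and Tie1 each gave 0.18. In limma's fit 0 genes of these 4 lists passed. The part of these cells in the members' values was not tested.

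**Figure D5:**
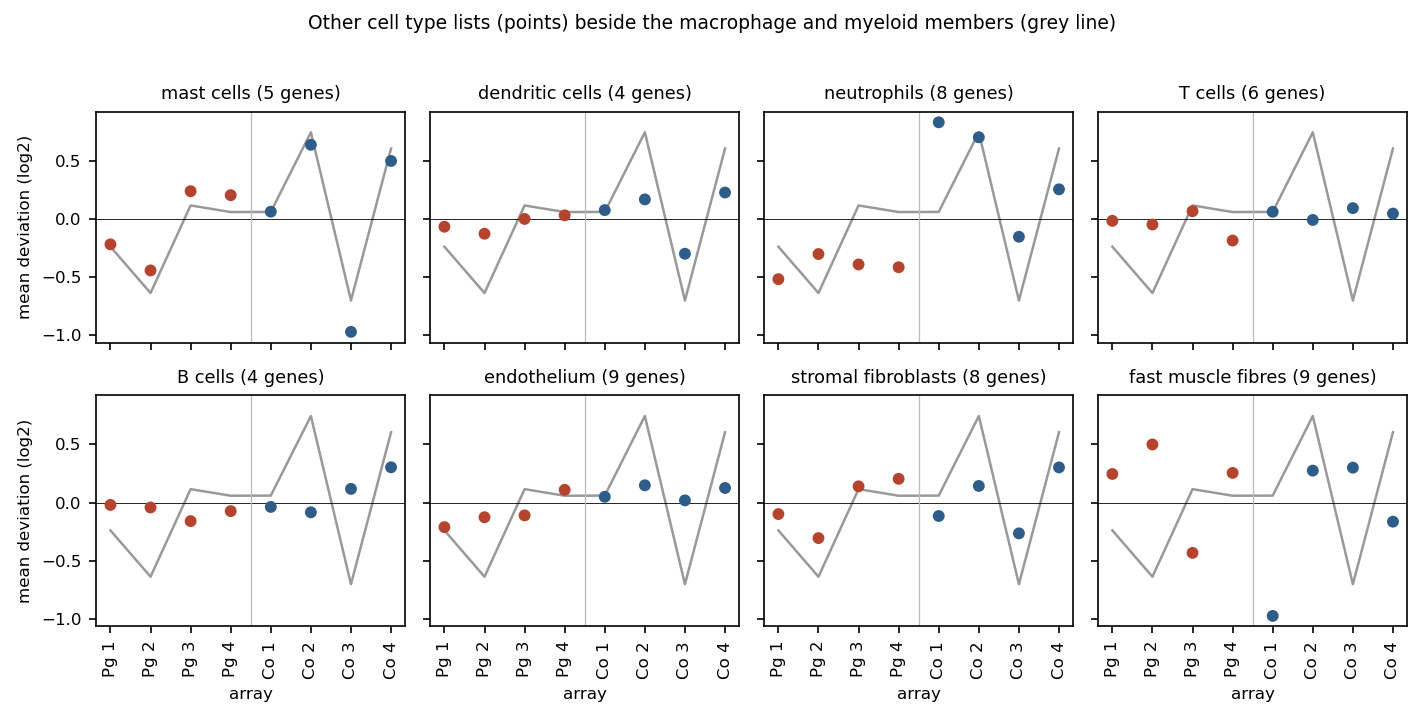
Mean deviation of log2 signal (y axis) on each array (x axis) for 8 lists of other cell types, Pg arrays red at left and Co arrays blue at right; the grey line repeats the members' mean deviation in every panel. Mast cell points lie along the line, from -0.97 on Co 3 to 0.64 on Co 2, while T and B cell points stay near 0.

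Since most members moved together, their promoter windows were read from RefSeq (build GRCm38.p6, 250 bases before to 50 after a start). Of the 40 genes, 29 matched, with 34 windows. Letters of the purine-rich core GAGGAA, which the factor encoded by Spi1 is known to bind, were searched on both strands, a choice made with the values known. They occurred in 18 of 34 windows (52.9%), against 28.3% of all 32851 windows. The longer AGGAAGT occurred in 12 (35.3%), against 9.35%, and GAGGAAGT, which contains both of these overlapping motifs, in 3 (8.82%), against 3.2%. A match of letters is a description and not a binding site. The 3 windows with GAGGAAGT belong to Ctss, Cd53 and C1qc and are shown as examples on the gene's strand, with the match in capitals; there it reads ACTTCCTC, since GAGGAAGT lies on the opposite strand. It begins 2 bases before the start for Ctss and 195 bases before it for C1qc, and in Cd53 it lies after the start.
Ctss, plus strand, chr3:95526536-95526835: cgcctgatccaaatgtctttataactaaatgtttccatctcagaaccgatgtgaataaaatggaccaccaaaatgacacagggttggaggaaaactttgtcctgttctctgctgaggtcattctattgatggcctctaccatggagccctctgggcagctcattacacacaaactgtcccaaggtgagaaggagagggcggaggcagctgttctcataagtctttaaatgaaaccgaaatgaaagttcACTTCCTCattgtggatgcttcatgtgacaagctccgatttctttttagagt
Cd53, minus strand, chr3:106790100-106790399: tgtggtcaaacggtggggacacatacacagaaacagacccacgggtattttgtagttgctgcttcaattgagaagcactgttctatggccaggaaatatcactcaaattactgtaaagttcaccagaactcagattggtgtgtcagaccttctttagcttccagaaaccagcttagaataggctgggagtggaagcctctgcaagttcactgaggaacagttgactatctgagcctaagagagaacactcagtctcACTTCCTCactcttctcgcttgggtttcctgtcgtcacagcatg
C1qc, minus strand, chr4:136892865-136893164: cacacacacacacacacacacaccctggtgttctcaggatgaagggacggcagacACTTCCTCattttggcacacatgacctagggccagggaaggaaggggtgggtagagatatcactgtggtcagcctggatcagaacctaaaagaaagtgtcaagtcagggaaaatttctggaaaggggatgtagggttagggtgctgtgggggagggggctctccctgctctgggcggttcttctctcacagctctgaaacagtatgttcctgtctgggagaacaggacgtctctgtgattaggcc

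Ctss, Cd53 and C1qc, whose windows hold the match, gave differences of -0.63, -0.10 and -0.10. Their r with the mean of the other members was 0.99, 0.84 and 0.95. Most members followed that mean, 23 of 37 with r over 0.9, so these values say nothing of the match. A link between the match and the shared order was not tested. In the authors' deposited table, 46 rows belong to 37 members, 0 of them have an adjusted p under 0.05, and 37 rows have a higher mean in the columns named Pg, which hold the arrays filed as Co.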

How the data were processed

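Total RNA of soleus (200 ng, dye Cy3) was hybridised to Agilent mouse arrays, 1 array per sample. The deposited spot intensity values came from Agilent Feature Extraction 11.0.1.1 per the file headers (11.1 per the submitters' processing notes), already background-subtracted, with positions in mm9. A deposited table holds log2 values, p-values and statistics of the authors, each of the latter a score by the deposited column names; it was used only where named.

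The members and all lists were chosen with earlier results of these data known. Processed signals were converted to log2 and each array's 75th percentile was subtracted. Control and outlier-flagged spots were left out. Of 56605 probes, 33636 were well above background on at least 4 of 8 arrays and were kept. Names came from the files, updated through RefSeq. Each of 22221 genes was represented by its kept probe of highest mean. limma 3.58.1 in R 4.3.3 (lmFit, eBayes, two-sided, no covariate) compared Pg with Co, with Benjamini-Hochberg adjustment over all genes, and was tested on simulated data. The number of arrays limits the precision.

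Array values are given for members with adjusted p under 0.05 (none) and, in each role group, for those of smallest p and largest difference, with the next 2 by p in groups of over 5; up to 3 genes of smallest p are named per pathway list and up to 2 of highest signal per cell list. Of the genes this rule names, 1 is not reported here. Further probes, Il34, Csf1 and the values of Fcgr1 and Ptprc were added after the values were seen. Alternatives covered background correction, scaling, filter, probe choice, variance model, array weights, a block on the replicate number, the deposited values and arrays left out.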

Additional observations from a re-analysis of the deposited data

Results flagged for a closer look

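Among the 74 sets of 4 arrays formed by 37 members in each group, 3 held 1 array whose gap to its nearest neighbour, divided by the range of the group, passed Dixon's critical value for 4 values at 95%. Chance alone flags about 1 such set in 20. Cybb was at -5.82 on Pg 2, where the nearest Pg array was at -4.21. Cd53 was at -6.64 on Co 3, where the nearest Co array was at -4.51. Ms4a6d was at -5.08 on Co 3, where the nearest Co array was at -3.53. On each of these arrays the gene was not well above background.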

How the results depend on the processing

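The count of members past the threshold was 0 under each alternative that was run, with the smallest adjusted p, 0.0913 for Aif1, reached without Co 3. The members' median lay between -0.62 and -0.14 when single arrays were left out, and was -0.25 with normexp or quantile normalization. The count of all genes past the threshold, 26 (8 higher, 18 lower), depended strongly on the processing: 509 with normexp (338 higher, 171 lower), 216 with quantile normalization (152, 64), 91 with median centring (57, 34), 261 when a probe had to be well above background on each array (145, 116), 5154 with no filter on dim probes (512, 4642), 9 with the mean of all kept probes (2, 7), 10 with the kept probe of lowest mean (5, 5), 567 with trend and robust variance (347, 220) and 199 with array weights (109, 90). It was 2 to 6 with single arrays left out, 4 without Pg 2 and Co 3 and 0 without Pg 3 and Co 1, both pairs chosen after seeing the data. Pathway genes past the threshold numbered 4 with no filter and 2 with trend and robust variance. No filter also moved the median of all genes to -0.10. The causes were not tested. With a replicate block in the fit 0 genes passed and the members' median stayed at -0.32. Deviations of same-numbered arrays correlated at 0.06, -0.06, -0.04 and 0.23. These values cannot decide whether the samples were paired, and same-numbered Pg and Co arrays had the same place along the slide.

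Members near 0 changed direction. With normexp, Ncf1 was at -0.0455. With quantile normalization, Cd53 was at 0.22, Ms4a6c at 0.12 and Siglec1 at 0.0124, and with median centring Ms4a6c was at 0.0098. With the percentile over probes measured on all arrays, Folr2 was at -0.0107. With the mean of kept probes, Itgam was at -0.12, Cd163 at -0.0326 and Ncf1 at -0.18, and with the probe of lowest mean Itgam was at -0.32, Csf1r at 0.12, Cd163 at -0.12 and Ncf1 at -0.39. With array weights, Cd163 was at -0.0144, Folr2 at -0.0569 and Ncf1 at -0.0123. With the deposited values, turned to the sample records, Cd53 was at 0.0019, Ms4a6c at 0.13 and Ms4a6d at 0.0225. Without Pg 2 and Co 3, Folr2 was at -0.0589, Siglec1 at 0.28 and Ncf1 at -0.13, and without Pg 3 and Co 1, Ptprc was at 0.0306, Cd163 at -0.0489, Folr2 at -0.14 and Ncf1 at -0.0223. With single arrays left out, the range was -0.68 to 0.15 for Cd53, -0.51 to 0.21 for Fcgr3, -0.22 to 0.24 for Ncf1, -0.22 to 0.16 for Ms4a6c, -0.55 to 0.047 for Ms4a6d, -0.41 to 0.0838 for C1qa, -0.48 to 0.0222 for C1qb, -0.41 to 0.11 for C1qc, -0.54 to 0.28 for Cybb, -0.12 to 0.22 for Cd163, -0.25 to 0.20 for Folr2, -0.65 to 0.33 for Siglec1 and -0.18 to 2e-04 for Ptprc.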

Other observations

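Among genes that are no member, those whose values over the 8 arrays were most like the members' mean were named after their values had been seen, and a like profile says nothing of a shared function. Lilrb4a, an inhibitory receptor of myeloid cells, gave r = 0.99 and stood at -1.62, -2.11, -0.93 and -1.15 on the Pg arrays, against -0.85, -0.14, -2.18 and -0.30 on the Co arrays. Emilin2, a matrix glycoprotein, also gave r = 0.99, and its difference was -0.25 (adjusted p = 0.639). Next in order were the zinc finger gene Zfp583 (r = 0.99), Pamr1, which encodes a secreted protein (r = 0.98), and Cd48, a surface protein of leukocytes (r = 0.98). Their differences were -0.17, -0.39 and -0.27, with adjusted p of 0.558, 0.558 and 0.492, so these genes shared the members' order of arrays and did not pass the test between the groups.

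S100a9, a calcium-binding protein abundant in neutrophils, was chosen after its values were seen. It stood at -2.79, -2.97, -2.24 and -2.93 on the Pg arrays, against 1.13, 0.66, -2.27 and -2.01 on the Co arrays. Its high values were thus on Co 1 and Co 2, and Co 4, which was high for most members, was near the Pg arrays. The difference was -2.10 (adjusted p = 0.203, limma).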
